A study of Mus musculus with 6 samples.

Results

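The genes examined were the oocyte *Nlrp* paralogues *Nlrp4a*, *Nlrp4b*, *Nlrp4c*, *Nlrp4d*, *Nlrp4e*, *Nlrp4f*, *Nlrp9a*, *Nlrp9b*, *Nlrp9c* and *Nlrp14*. They were found by symbol among the 53465 genes of the deposited count table, and all 10 were present. Reads had been counted in 6 pools of M II stage oocytes from female Kunming (KM) mice, an outbred stock, aged 9 to 10 months. The 3 control pools were matured in vitro for 16 h without quercetin, and the 3 quercetin pools for the same time with 10 μM quercetin, a plant flavonoid that was supplied in DMSO. A pool combined 15 oocytes taken from 3 mice, so each value is a mean over oocytes and animals, and p-values measure the spread between pools. The question put to these genes was whether quercetin during maturation changed their transcript level.

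NLRP proteins carry an N-terminal pyrin domain, a nucleotide-binding NACHT domain and C-terminal leucine-rich repeats. Some family members, such as NLRP3, build inflammasomes, which activate caspase-1 and the release of interleukin-1β. Another branch is expressed mainly in oocytes, where its messages are stored during growth and used after fertilization. *Nlrp5* (MATER) of this branch is a maternal-effect gene, and its protein sits in the subcortical maternal complex beneath the oocyte membrane. In mice, the *Nlrp4* and *Nlrp9* genes were multiplied by duplication, whereas *Nlrp14* has remained single.

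On GRCm38, 9 of the 10 genes lie on chromosome 7 and *Nlrp4f* lies on chromosome 13 (65177111 to 65205977, minus strand). *Nlrp9c* (26322473 to 26403700, minus strand), *Nlrp4a* (26435113 to 26476142, plus strand) and *Nlrp9a* (26535023 to 26575615, plus strand) are neighbours on chromosome 7, with gaps of 31.4 and 58.9 kb. *Nlrp4e* (23301192 to 23362277) is 23.6 kb from *Nlrp5*, and *Nlrp14* lies far from the others, at 107166990 to 107198102, and both are on the plus strand. *Nlrp4c* (6045161 to 6105150), *Nlrp4b* (10687789 to 10730168) and *Nlrp9b* (19991465 to 20073306), all on the plus strand, are spread over the start of chromosome 7. *Nlrp4d* (10358873 to 10388935, minus strand) is annotated as an unprocessed pseudogene with no coding sequence, 299 kb from *Nlrp4b*. In the count table the *Nlrp4* genes a to f are ENSMUSG00000040601, ENSMUSG00000034087, ENSMUSG00000034690, ENSMUSG00000034122, ENSMUSG00000045693 and ENSMUSG00000032999. *Nlrp9a*, *Nlrp9b* and *Nlrp9c* are ENSMUSG00000054102, ENSMUSG00000060508 and ENSMUSG00000040614, and *Nlrp14* is ENSMUSG00000016626.

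Because reads from near-identical genes can be split or discarded during counting, the sequences of the members were compared first. The first 90 coding bases are shown 5′ to 3′ to display how alike the paralogues are within a subfamily and how far they differ between subfamilies. Sequence and exon numbers are those of GENCODE release M21 on GRCm38. Capitals mark bases that differ from the commonest base at that position within the subfamily, and positions with a tie stay in lower case.
Nlrp4a chr7:26444212-26444301 (plus strand, exon 3 of 11): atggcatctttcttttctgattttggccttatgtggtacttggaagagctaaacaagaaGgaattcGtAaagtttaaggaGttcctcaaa
Nlrp4b chr7:10710126-10710215 (plus strand, exon 3 of 9): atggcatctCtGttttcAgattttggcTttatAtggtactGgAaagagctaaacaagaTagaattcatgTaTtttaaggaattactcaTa
Nlrp4c chr7:6060595-6060684 (plus strand, exon 2 of 10): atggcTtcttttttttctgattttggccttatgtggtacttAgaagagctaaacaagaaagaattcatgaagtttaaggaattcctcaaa
Nlrp4e chr7:23301282-23301371 (plus strand, exon 1 of 9): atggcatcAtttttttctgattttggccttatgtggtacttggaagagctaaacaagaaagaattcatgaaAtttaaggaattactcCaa
Nlrp4f chr13:65199353-65199442 (minus strand, exon 3 of 11): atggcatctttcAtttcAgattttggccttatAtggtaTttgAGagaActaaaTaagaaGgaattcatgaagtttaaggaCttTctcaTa
Nlrp9a chr7:26550812-26550901 (plus strand, exon 2 of 10): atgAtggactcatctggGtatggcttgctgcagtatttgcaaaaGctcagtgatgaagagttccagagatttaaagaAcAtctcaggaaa
Nlrp9b chr7:20019172-20019261 (plus strand, exon 2 of 10): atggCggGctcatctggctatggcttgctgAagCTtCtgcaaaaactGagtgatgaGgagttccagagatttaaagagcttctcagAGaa
Nlrp9c chr7:26394149-26394238 (minus strand, exon 1 of 9): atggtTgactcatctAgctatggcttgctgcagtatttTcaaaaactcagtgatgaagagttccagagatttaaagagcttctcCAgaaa
Nlrp14 chr7:107181173-107181687 (plus strand, start and end in different exons): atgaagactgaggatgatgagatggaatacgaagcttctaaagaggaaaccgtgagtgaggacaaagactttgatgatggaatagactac

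Within the *Nlrp4* subfamily, *Nlrp4c* carried 2 bases in capitals, *Nlrp4e* 3 and *Nlrp4a* 4, whereas *Nlrp4b* carried 11 and *Nlrp4f* 12. In the *Nlrp9* subfamily, *Nlrp9b* carried 10, against 5 each in *Nlrp9a* and *Nlrp9c*. Over whole coding sequences, identity of aligned bases was 78.5 to 93.9% within *Nlrp4* (10 pairs, median 83.7%) and 83.4 to 87.7% within *Nlrp9* (3 pairs, median 84.5%). It was 65.3 to 68.7% between *Nlrp4* and *Nlrp9* members (15 pairs), and 66.3 to 69.5% between *Nlrp14* and the others (8 pairs). The closest pair was *Nlrp4c* and *Nlrp4e* at 93.9%. The longest run without a difference was in the *Nlrp9* subfamily, where coding bases 589 to 717 of *Nlrp9a* (chr7:26557547-26557675, plus strand, exon 3 of 10) and *Nlrp9b* (chr7:20023428-20023556, plus strand, exon 3 of 10) were the same. A read that falls within these 129 bases cannot be assigned to either gene from its sequence.
Nlrp9a and Nlrp9b: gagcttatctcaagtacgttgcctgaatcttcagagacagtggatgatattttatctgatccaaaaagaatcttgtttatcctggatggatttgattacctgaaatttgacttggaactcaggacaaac

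Sharing across all annotated genes was taken as the share of a member's 31-base transcript words that were also found in transcripts of any other gene. *Nlrp4e* was the member with the largest share, at 52.8%, mostly with the annotated genes *Gm16443* (42%) and *Gm8486* (41.5%). *Nlrp4c* followed at 22.1%, mainly with *Nlrp4e* (15.4%), and *Nlrp4f* at 15.9%, mainly with the transcribed pseudogene *Nlrp4g* (10.3%). Shares were 12.3% in *Nlrp9a*, 11.9% in *Nlrp9b* and 6.3% in *Nlrp9c*, mostly within the *Nlrp9* subfamily. *Nlrp4a* shared 8.01%, most of it with other members (6.48%). The single genes that shared most with it were *Gm4541* and *Gm8685* (4.34% each). Part was a repeat-like stretch that also occurs in many unrelated genes. *Nlrp4d* shared 3.5%, *Nlrp4b* 0.396% and *Nlrp14* none. With words of 75 bases, *Nlrp4e* still shared 20.1% *Nlrp9b* 4.25%, *Nlrp4c* 3.08% and the others at most 1.98%. At 31 bases, 5 members had at least 10% of their words in common with another gene, and at 75 bases 1 did. How reads matching several genes were counted is not given in the sources used here, so the levels of members that share much sequence, *Nlrp4e* above all, are uncertain. The genes that share most with *Nlrp4e* received few reads beside it, *Gm16443* with 316 to 550 counts per pool and *Gm8486* with 33 to 64, against 2408 to 3482 for *Nlrp4e*. *Gm4541* had 689 to 1254 counts per pool, against 20545 to 34178 for *Nlrp4a*. These counts come from the same handling of shared reads, so they cannot show how many reads were discarded or moved between these genes.

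**Figure D1:**
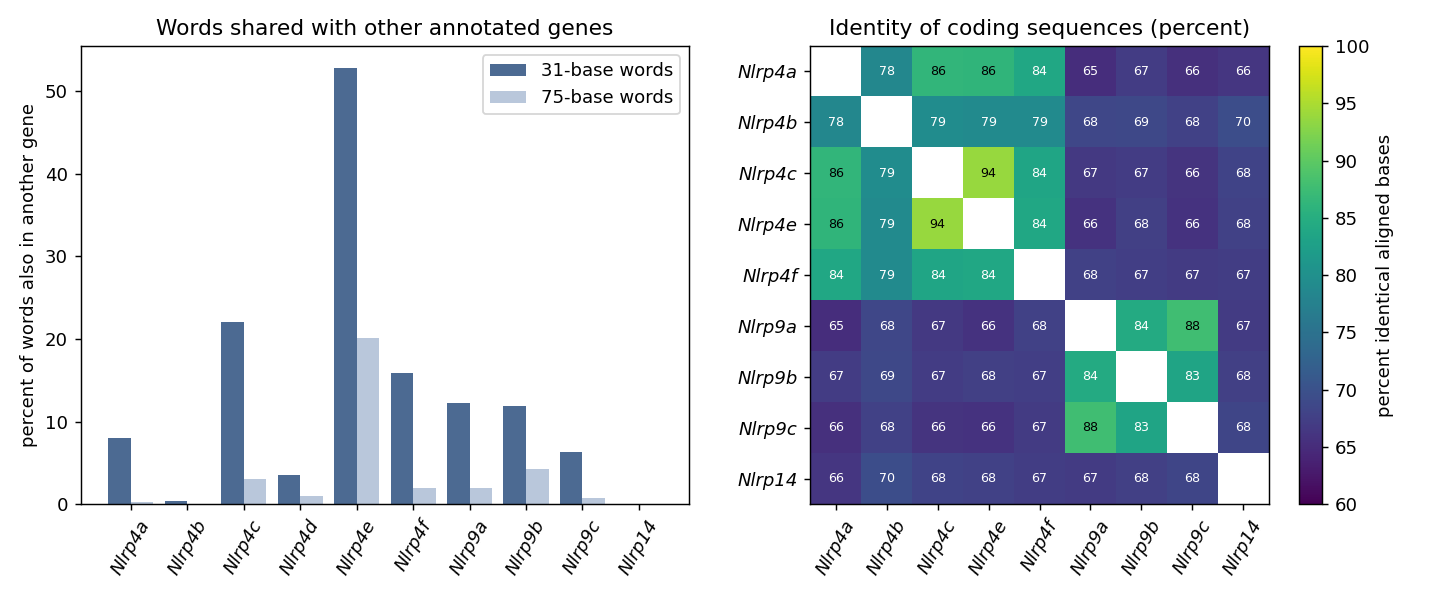
Left, bars give the percent of 31-base (dark) and 75-base (light) words of each member's transcripts that also occur in another annotated gene, and right, each cell gives the percent of identical aligned coding bases for a pair of members. *Nlrp4e* stands highest at both word lengths (52.8% and 20.1%), *Nlrp14* is at 0, and identity is high within the *Nlrp4* and *Nlrp9* blocks and below 70% between them.

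Total counts ran from 7880467 to 9938743 per pool. At this depth 3 counts, the floor used for a gene without reads, correspond to 0.302 to 0.381 CPM, the unit of counts scaled to library size used here, and this floor covers counting error only. Oocyte markers (*Zp1*, *Zp2*, *Zp3*, *Gdf9*, *Bmp15*, *Oosp1*, *Mos* and *Nlrp5*) were present in every pool, with a summed level of 15900 to 19941 CPM in control and 16336 to 18960 in quercetin pools. Of 12 cumulus and granulosa markers, *Foxl2*, *Amh*, *Amhr2* and *Ptx3* had no counts in any pool. *Cyp19a1* was detected at 486 to 692 counts per pool and made up most of the sum. *Nr5a2*, *Kitl*, *Has2* and, at 6 to 18 counts, *Fshr* were also present in every pool. The sum over the 12 was 85.1 to 100 CPM in control and 100 to 111 in quercetin pools. For 6 macrophage and leukocyte markers the sum was 10.7 to 17.9 and 11.7 to 13.6 CPM. Quercetin pool 3 stood apart from the other quercetin pools. Without it the genes at an unadjusted p under 0.05 went from 477 of 11842 (4.03%) to 1563 of 12258 (12.8%), so results are given below with and without it where it matters.

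Most of the *Nlrp* paralogues, though not *Nlrp4c* or *Nlrp4d*, were abundant messages of these oocytes. *Nlrp4d*, the pseudogene, had no counts in any pool, which allows up to 3 counts, and was not tested. The other 9 were detected in all pools and passed the filter on low counts. Together the 10 genes held 0.917, 1.23 and 1.09% of all counts in control pools 1, 2 and 3, and 0.987, 1.08 and 1.39% in quercetin pools 1, 2 and 3. This gave 1.08 ± 0.157% in control and 1.15 ± 0.209% in quercetin pools (SD, n = 3 each). The groups overlapped, and the difference of 0.0711 percentage points was smaller than either SD. It was -0.0104 points without control pool 1 and -0.0466 without quercetin pool 3, so its sign rested on single pools. Reads split among the 10 members stay within this sum, but reads assigned to other genes that share their sequence, such as *Gm16443* or *Nlrp4g*, do not. In pooled RNA, fewer oocytes carrying a transcript and less of it per oocyte cannot be told apart.

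Levels of different genes were compared per kilobase of annotated exon, as CPM per kb over the 6 pools. *Nlrp4a* had the highest mean level, 683 ± 129 CPM per kb (SD, n = 6), which placed it at rank 92 of the 24437 genes with counts and an annotated length. It was followed by *Nlrp14* (510 ± 170), *Nlrp9c* (431 ± 91), *Nlrp4f* (357 ± 40.7) and *Nlrp9a* (257 ± 44.4). *Nlrp4b* (127 ± 14.3), *Nlrp4e* (101 ± 13.7) and *Nlrp9b* (71.4 ± 20.1) were lower, and *Nlrp4c* was far below the rest at 9.89 ± 1.71 CPM per kb, rank 3448. *Nlrp4c* and *Nlrp4e* are thus the closest pair in sequence and yet differed in level in every pool.

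Neighbours in this order were compared within pools by a two-sided exact sign-flip permutation test of their log2 ratio over 6 pools, which cannot go under p = 0.0312. The order held in 6 of 6 pools for *Nlrp4a* over *Nlrp14* (mean ratio 1.38), *Nlrp4f* over *Nlrp9a* (1.40), *Nlrp9a* over *Nlrp4b* (2.01), *Nlrp4e* over *Nlrp9b* (1.45) and *Nlrp9b* over *Nlrp4c* (7.07). Each of these 5 ratios reached that smallest p by the exact test. After Benjamini-Hochberg adjustment over the 8 pairs it was 0.05, which is not under 0.05. The order was set by the same 6 pools, so these p-values describe only how steady a ratio was between pools. They do not cover the length used or reads shared between genes. The other neighbouring pairs did not differ beyond their spread. *Nlrp14* exceeded *Nlrp9c* in 4 of 6 pools (ratio 1.15, exact permutation p = 0.406), *Nlrp9c* exceeded *Nlrp4f* in 4 of 6 (1.19, exact permutation p = 0.188) and *Nlrp4b* exceeded *Nlrp4e* in 5 of 6 (1.26, exact permutation p = 0.0625). The places of *Nlrp4a*, *Nlrp14* and *Nlrp9c* also depended on the length used. *Nlrp9c* was first and *Nlrp4a* next by the longest transcript, and *Nlrp4a* was followed by *Nlrp9c* by coding length, while the other 6 kept their places.

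**Figure D2:**
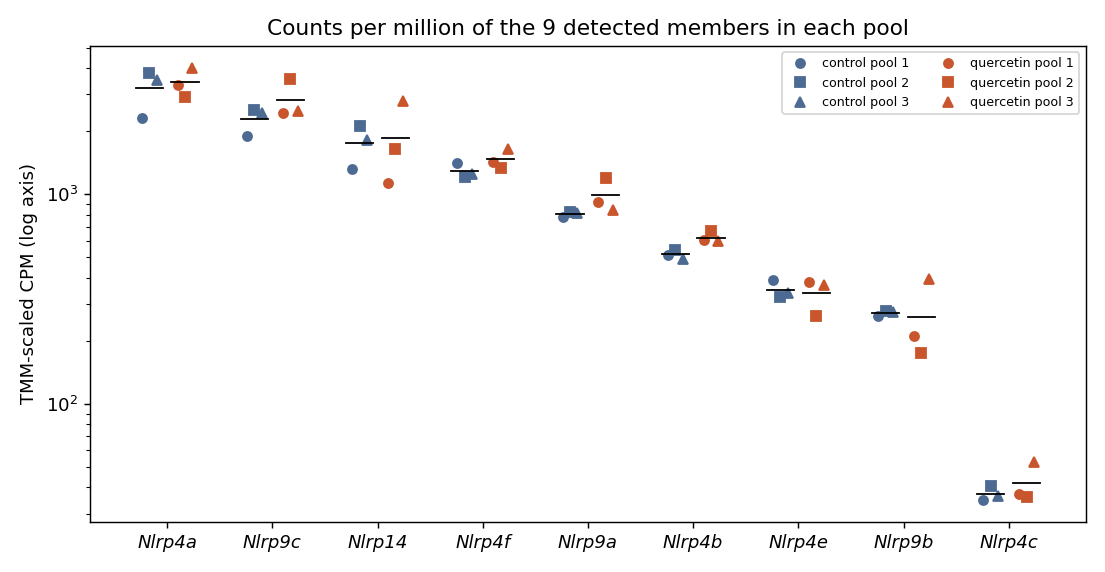
Points give the CPM of each detected member in each of the 3 control (blue) and 3 quercetin (orange) pools on a log axis, with TMM-scaled library sizes, and horizontal lines mark the group means. Control and quercetin pools interleave for 7 of 9 members and separate for *Nlrp4b* and *Nlrp9a*, and *Nlrp9b* pools lie close together in control and far apart with quercetin.

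No member changed between quercetin and control pools by the study's criteria of more than 2-fold and a Benjamini-Hochberg adjusted p under 0.05, computed over 11842 genes by the quasi-likelihood test of edgeR. The count was 0 of 9 tested members, beside 0% of all tested genes in each direction. The smallest adjusted p over all tested genes was 0.073 (edgeR), so this fit called no gene at all. The study, by its own analysis, reported both up-regulated and down-regulated genes at these cutoffs. At an unadjusted p under 0.05 the count of members was also 0, beside 2.14% of all tested genes that were higher and 1.89% that were lower. DESeq2, edgeR's likelihood ratio test and limma-voom called 0 members too, beside 0.101, 0.135 and 0% of all tested genes. By these tests 0 members had an unadjusted p under 0.05, beside 3.24, 3.54 and 4.56% of all tested genes, so the 0 of 9 is near the background. With quercetin, 7 members had a higher and 2 a lower fitted mean, beside 46.4% higher and 53.6% lower of all tested genes. Their median log2 fold change was 0.17 against -0.03 for all tested genes. The split was 4 higher and 5 lower without quercetin pool 3, and 9 higher and 0 lower without quercetin pool 2. In each of the 9, the 95% interval of the fold change excluded a 2-fold change in either direction.

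**Figure D3:**
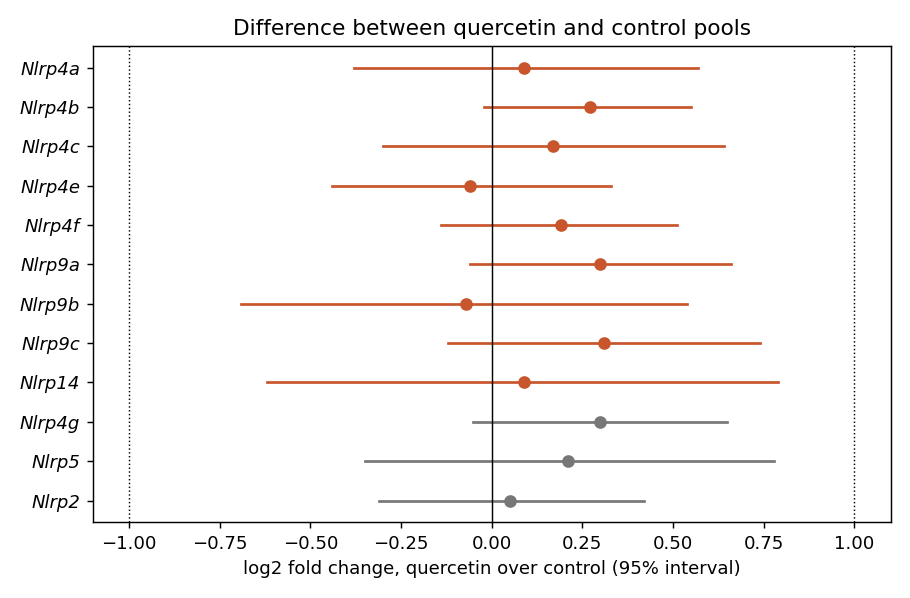
Points give the log2 fold change of quercetin over control for the 9 tested members (orange) and the related oocyte genes *Nlrp4g*, *Nlrp5* and *Nlrp2* (grey), lines give the 95% interval of the edgeR fit, and dotted lines mark a 2-fold change. All intervals cross 0 and stay inside the dotted lines, with *Nlrp14* (-0.62 to 0.79) and *Nlrp9b* (-0.69 to 0.54) the widest among the members.

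In the *Nlrp4* subfamily, *Nlrp4b* was the member whose groups separated. Its level was 516, 543 and 494 CPM in control pools 1, 2 and 3, and 604, 666 and 596 CPM in quercetin pools 1, 2 and 3. All its quercetin values were thus above all its control values. Groups separated in this direction in 2 of the 9 members, beside 5.42% of all tested genes, and in the other direction in 0, beside 5.17%. The means were 518 ± 24.5 and 622 ± 38.6 CPM (SD, n = 3 each), and the two-sided exact permutation p of 0.1 is the smallest that 3 pools against 3 can give. The log2 fold change was 0.27 (SE 0.13, 95% interval -0.02 to 0.55, adjusted p = 0.988, edgeR), or 1.20-fold. Without quercetin pool 3 it was 0.30 (adjusted p = 0.36, edgeR). *Nlrp4b* shares almost no sequence with other genes, so its count is little exposed to splitting.

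*Nlrp4a*, the most abundant member per kilobase, varied mainly within the control group. Its level was 2305, 3784 and 3511 CPM in control pools 1, 2 and 3, and 3320, 2909 and 4023 CPM in quercetin pools 1, 2 and 3. Control pool 1 was the lowest of the 6, and the groups overlapped. The fitted log2 fold change was 0.09 (SE 0.21, adjusted p = 0.993, edgeR), and it turned to -0.09 without control pool 1 and to -0.04 without quercetin pool 3.

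*Nlrp4f*, whose protein has been linked to the subcortical maternal complex, was at 1416, 1211 and 1254 CPM in control and 1428, 1333 and 1652 CPM in quercetin pools. Control pool 1 lay within the range of the quercetin pools, so the groups overlapped. Means were 1294 ± 108 and 1471 ± 163 CPM, with a log2 fold change of 0.19 (SE 0.14, adjusted p = 0.988, edgeR). *Nlrp4e*, whose loss by knockdown arrests early embryos, was at 391, 325 and 337 CPM in control and 380, 264 and 369 CPM in quercetin pools. The lowest value was in quercetin pool 2, and the groups overlapped. Its log2 fold change of -0.06 (SE 0.17, adjusted p = 0.995, edgeR) turned to 0.03 without control pool 1 and to 0.09 without quercetin pool 2.

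*Nlrp4c*, the close copy of *Nlrp4e*, was at 34.8, 40.8 and 36.5 CPM in control and 37.1, 35.8 and 53 CPM in quercetin pools. Quercetin pool 3 was above all others, and the remaining quercetin pools lay inside the control range. Its log2 fold change was 0.17 (SE 0.21, adjusted p = 0.988, edgeR), and -0.03 without quercetin pool 3.

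NLRP9B is known from intestinal epithelium, where it takes part with the helicase DHX9 in sensing viral RNA, while the mouse *Nlrp9* genes are otherwise mainly ovarian. *Nlrp9a* was at 779, 820 and 811 CPM in the control pools in number order, and at 923, 1195 and 844 CPM in quercetin pools 1, 2 and 3. Again no quercetin value fell inside the control range, and most of the excess was in quercetin pool 2. Means were 803 ± 21.7 and 987 ± 184 CPM, with an exact permutation p of 0.1 and a log2 fold change of 0.30 (SE 0.16, 95% interval -0.06 to 0.66, adjusted p = 0.988, edgeR). Without quercetin pool 3 the log2 fold change was 0.40 (adjusted p = 0.318, edgeR), and without quercetin pool 2 it was 0.14 (adjusted p = 1, edgeR). With unscaled library sizes the groups of *Nlrp9a* still did not overlap and those of *Nlrp4b* did, so that 1 member was separated in place of 2.

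*Nlrp9c*, the main *Nlrp9* message, was at 1904, 2520 and 2432 CPM in control and 2433, 3555 and 2506 CPM in quercetin pools. Control pool 1 was the lowest and quercetin pool 2 the highest, and the groups overlapped. The log2 fold change was 0.31 (SE 0.19, 95% interval -0.12 to 0.74, adjusted p = 0.988, edgeR). Without quercetin pool 2 it was 0.11.

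*Nlrp9b* differed from its paralogues in its pattern over pools. It was at 263, 279 and 276 CPM in the control pools in number order, and at 210, 175 and 394 CPM in the quercetin pools. The control pools were nearly equal, quercetin pools 1 and 2 were below all of them and quercetin pool 3 was above all of them. The means were 273 ± 8.71 and 259 ± 118 CPM, and the log2 fold change was -0.07 (SE 0.27, 95% interval -0.69 to 0.54, adjusted p = 0.996, edgeR). Without quercetin pool 3 it was -0.50 (SE 0.14, adjusted p = 0.243, edgeR), and it turned positive without quercetin pool 1 (0.06) or quercetin pool 2 (0.15). So 3 members (*Nlrp9b*, *Nlrp9a* and *Nlrp4b*) had an unadjusted p under 0.05 by edgeR without quercetin pool 3, in a setting where 12.8% of all tested genes did, and none passed after adjustment. The 136 exon bases of *Nlrp9b* that overlap *Gm18877* are 3.65% of its exon length, and *Gm18877* had 1 count over all 6 pools. As the handling of shared reads is not given, this count cannot show how many *Nlrp9b* reads were discarded there.

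The make-up of the *Nlrp9* counts was compared as ratios within pools. There were 0.337, 0.34 and 0.34 *Nlrp9b* counts per *Nlrp9a* count in the control group, and 0.227, 0.146 and 0.466 with quercetin. For *Nlrp9c* over *Nlrp9a* the ratio was 2.45, 3.07 and 3 in control and 2.64, 2.97 and 2.97 in quercetin pools. For *Nlrp9c* over *Nlrp9b* it was 7.25, 9.03 and 8.8 in control and 11.6, 20.4 and 6.37 with quercetin. Both ratios with *Nlrp9b* lay outside the control range in all quercetin pools, on 1 side in pools 1 and 2 and on the other in pool 3, while the *Nlrp9c* to *Nlrp9a* ratio stayed within the control range. *Nlrp9b* made up 8.92, 7.71 and 7.85% of the *Nlrp9* counts in control and 5.88, 3.55 and 10.5% in quercetin pools. *Nlrp9c* held 64.7 to 72.2% and *Nlrp9a* 22.5 to 26.4% over all pools.

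The summed *Nlrp9* counts were 0.345 ± 0.0399% of all counts in control and 0.393 ± 0.0578% in quercetin pools (SD, n = 3 each). The summed *Nlrp4* counts were 0.555 ± 0.0723% and 0.574 ± 0.115%. Both sums overlapped between groups. Of the *Nlrp4* counts, *Nlrp4a* held 49.4 to 64.1%, *Nlrp4f* 20.5 to 30.4%, *Nlrp4b* 8.77 to 12.8%, *Nlrp4e* 5.07 to 8.38% and *Nlrp4c* 0.643 to 0.792%. Control pool 1 had the lowest share of *Nlrp4a* and the highest of *Nlrp4f*, with 1.63 *Nlrp4a* counts per *Nlrp4f* count against 2.18 to 3.12 in the other pools.

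**Figure D4:**
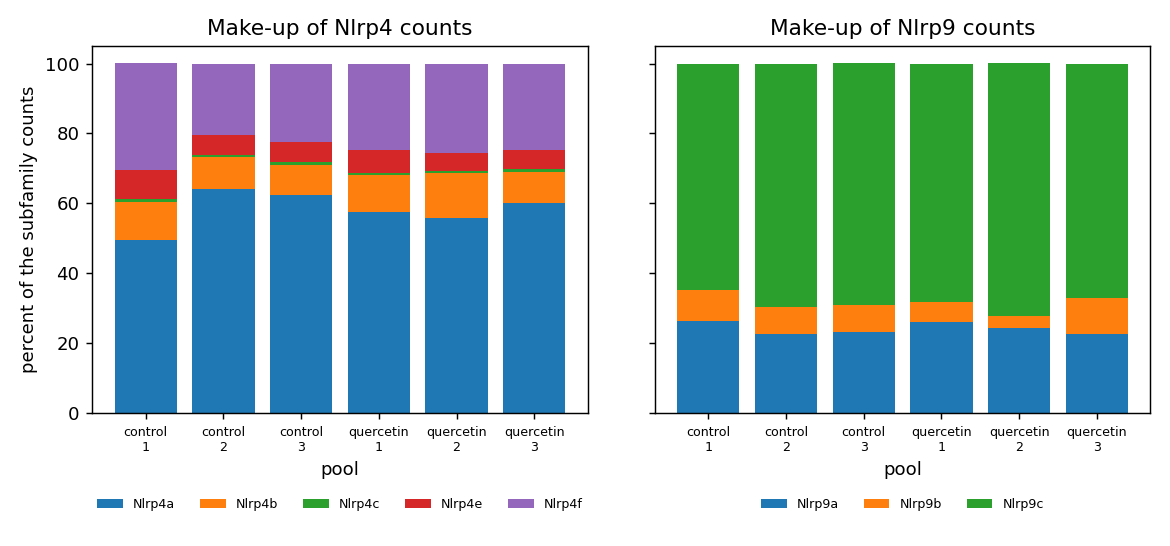
Stacked bars give the percent of *Nlrp4* counts (left) and *Nlrp9* counts (right) that fell on each member in each of the 6 pools, so every bar sums to 100%. The shares of every member overlap between control and quercetin pools, with the *Nlrp9b* band narrowest in quercetin pool 2 (3.55%) and widest in quercetin pool 3 (10.5%).

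*Nlrp14*, a single gene that shares no 31-base word with any other, is maternally required in the early embryo. Its level was 1314, 2123 and 1808 CPM in control pools 1, 2 and 3, and 1135, 1637 and 2800 CPM in quercetin pools 1, 2 and 3. Quercetin pools held both the lowest and the highest value, and the groups overlapped. The means were 1748 ± 408 and 1857 ± 854 CPM, with an exact permutation p of 1 and a log2 fold change of 0.09 (SE 0.31, 95% interval -0.62 to 0.79, adjusted p = 0.996, edgeR). It was -0.08 without control pool 1 and -0.33 without quercetin pool 3. *Nlrp14* and the zona pellucida messages *Zp1*, *Zp2* and *Zp3* were lowest in quercetin pool 1 and control pool 1. They were highest in control pool 2 and quercetin pool 3, but *Zp2* and *Zp3* peaked in control pool 2 and *Nlrp14* in quercetin pool 3. The oocyte marker *Nlrp5* followed too, with 1742, 2695 and 2011 counts in control and 1639, 2653 and 3134 in quercetin pools. Like *Nlrp14*, it peaked in quercetin pool 3. *Bmp15* shared the lowest pools but was highest in quercetin pool 2. The oocyte markers *Gdf9*, *Oosp1* and *Mos* did not follow. *Gdf9* was highest in quercetin pool 1, *Mos* was highest in control pool 3 and *Oosp1* was lowest in quercetin pool 3. *Zp2* had 1990, 12980 and 5601 counts in control and 1045, 7734 and 11260 counts in quercetin pools, and the part of such shared pool differences in the spread of *Nlrp14* was not tested.

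Spread between pools differed from member to member. The coefficient of variation (CV, SD over mean) of *Nlrp9b* was 3.2% in control and 45.4% in quercetin pools, and that of *Nlrp9a* 2.7% and 18.7%. *Nlrp14* had 23.3% and 46%, and *Nlrp4a* was the only member whose CV was smaller with quercetin (24.6% and 16.5%). The median CV of the 1692 other tested genes at 100 CPM or more was 10.2% in control and 14.9% in quercetin pools, so a larger CV with quercetin was not particular to these members. *Nlrp4b* had 4.73% and 6.21% and a highest pool 1.35 times the lowest, against 2.47 times for *Nlrp14* and 2.25 times for *Nlrp9b*.

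Pool by pool, quercetin pool 3 held the highest value of 5 of the 9 members and was above the member's own mean in 7. Quercetin pool 2 held the highest value of 3 members (*Nlrp4b*, *Nlrp9a* and *Nlrp9c*) and the lowest of *Nlrp4e* and *Nlrp9b*. Control pool 1 was lowest for *Nlrp4a*, *Nlrp4c*, *Nlrp9a* and *Nlrp9c*, and highest for *Nlrp4e*. The 3 neighbours on chromosome 7, *Nlrp9c*, *Nlrp4a* and *Nlrp9a*, thus had the same lowest pool. *Nlrp9c* and *Nlrp9a* also had the same highest pool, and *Nlrp4a* peaked in quercetin pool 3.

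**Figure D5:**
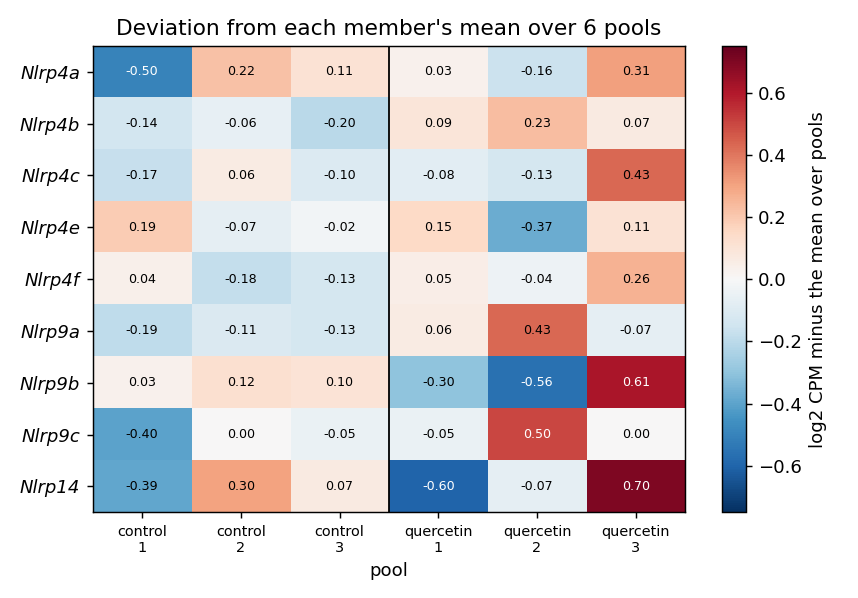
Cells give the log2 CPM of each member in each pool minus the member's mean over the 6 pools, red above and blue below, with control pools left of the line. *Nlrp9b* and *Nlrp14* reach 0.61 and 0.70 in quercetin pool 3, while *Nlrp9a* and *Nlrp9c* reach 0.43 and 0.50 in quercetin pool 2.

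No gene of the related pathways was called by the same criteria, beside 0% of all tested genes. Of 22 other NLR family genes, 6 were tested, 5 had a higher and 1 a lower mean, and 0 had an unadjusted p under 0.05 (edgeR). As background for this and the lists below, 46.4% of all tested genes were higher and 53.6% lower. An unadjusted p under 0.05 was found for 4.03% of them (edgeR). Among them, *Nlrp4g* had 4097, 3721 and 4735 counts in control and 4387, 4816 and 5919 in quercetin pools, with a log2 fold change of 0.30 (SE 0.16, adjusted p = 0.988, edgeR). The log2 fold change was 0.21 for *Nlrp5* (SE 0.25), 0.05 for *Nlrp2*, another oocyte gene (SE 0.16), and 0.47 for the pseudogene *Nlrp5-ps* (SE 0.39). *Naip1*, a sensor that works with NLRC4, was the gene with a lower mean (-0.24, SE 0.42). Among inflammasome sensors, *Nlrp3* had 1 count over all pools and *Nlrp1b* none. *Naip1* was at 17.3 ± 8.99 CPM in control and 14.6 ± 6.50 CPM in quercetin pools, and *Nlrc4* at 28 ± 3.38 CPM in control and 31.5 ± 7.21 CPM in quercetin pools (SD, n = 3 each).

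Most inflammasome partners were also at or near 0. *Pycard*, the adaptor, had at most 1 count in a pool, *Il1b* had none and *Casp1* had 0 to 13. Of 9 such genes only *Nek7* (log2 fold change 0.64, SE 0.40) and *Txnip* (0.10, SE 0.15) passed the filter. Of the 6 innate signalling genes named with NLRP4 and NLRP9, 4 were tested and 0 had an unadjusted p under 0.05 (edgeR). *Becn1*, an autophagy gene, and *Tbk1*, a kinase of interferon signalling, had log2 fold changes of 0.20 (SE 0.15) and 0.19 (SE 0.16). *Mavs*, the mitochondrial adaptor of RNA sensing, and *Dhx9* had -0.43 (SE 0.34) and -0.44 (SE 0.43).

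Of 10 subcortical maternal complex and maternal partner genes, 9 were tested, 4 had a higher and 5 a lower mean, and the median log2 fold change was -0.01. An unadjusted p under 0.05 was found for 2, both lower with quercetin. *Ooep*, a core component of the complex, was at 718 ± 242 CPM in control and 381 ± 222 CPM in quercetin pools (log2 fold change -0.92, SE 0.38, adjusted p = 0.988, edgeR). *Zbed3*, another component, was at 6234 ± 625 and 4861 ± 638 CPM (-0.36, SE 0.16, adjusted p = 0.988, edgeR). Neither passed after adjustment, and both are given beside 1.89% of all tested genes that were lower at this p. *Uhrf1*, a maintenance factor of DNA methylation, had a log2 fold change of -0.27 (SE 0.14, adjusted p = 0.988, edgeR), and *Dppa3*, a maternal chromatin factor, of 0.11 (SE 0.17).

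Among the markers, 0 of 8 tested oocyte markers and 0 of 2 tested macrophage and leukocyte markers had an unadjusted p under 0.05 (edgeR). The 4 tested cumulus and granulosa markers all had a higher mean with quercetin, and 1 had an unadjusted p under 0.05 (edgeR). It was *Kitl*, the KIT ligand, at 8.11 ± 0.5 CPM in control and 12.2 ± 0.293 CPM in quercetin pools. Its log2 fold change was 0.59 (adjusted p = 0.988, edgeR). Of all tested genes, 2.14% were higher and 1.89% lower at this unadjusted p.

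The genes most like the summed members across the 6 pools were *Bora*, *Gm28644*, *Sel1l*, *Dusp19* and *Chordc1*. Likeness was the root mean square difference of mean-centred log2 CPM over the 6 pools, taken over 7914 genes at 5 CPM or more. It was 0.0148 for *Bora* and 0.0413 to 0.0581 for the other 4, against a median of 0.317 over the genes compared. These values describe 6 pools only.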

How the data were processed

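RNA from 6 pools of KM mouse oocytes was amplified with the Smart-seq HT kit and sequenced. The authors aligned the reads to GRCm38.91 with Hisat2, whereas the submitters' processing notes name TopHat2 2.0.6 and CASAVA 1.8. The deposited values are counts, whole numbers of reads per Ensembl gene and pool, neither normalized nor pooled. The counting program and its handling of strand and of reads that match several genes are not given in the sources used here. KM mice differ in sequence from the reference, and the effect on paralogue counts was not tested.

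Genes with symbols were matched to GENCODE M21. Of 53465 genes, 11842 passed filterByExpr of edgeR 4.0.16 (minimum count 10). Counts were TMM-scaled and compared by edgeR's quasi-likelihood test without covariates (R 4.3.3). A call required more than 2-fold and a Benjamini-Hochberg adjusted p under 0.05. CPM were computed from TMM-scaled library sizes, except for the floor and the sums over marker lists, which used total counts. The 95% intervals come from the fit. Members were further compared by exact permutation (two-sided), whose smallest possible p is 0.1. The fit was tested on simulated counts. Transcript words and pairwise coding alignments were computed in Python 3.11.15 with Biopython 1.88, and plots with matplotlib 3.10.9. Protein and promoter sequences were not used here.

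The analysis was repeated with DESeq2 1.42.0, the likelihood ratio test, voom of limma 3.58.1, other scalings and filters, leaving out each pool, and the replicate number as a block. The members and lists were chosen with earlier results of these data known. Every member is named with its values, with at most 2 genes each way per list by smallest unadjusted p, *Nlrp5*, *Nlrp2* and the 5 most alike genes. *Nlrp1b*, *Nlrp3*, *Nlrc4*, *Pycard*, *Casp1*, *Il1b*, *Uhrf1*, *Nr5a2*, *Has2*, *Fshr* and the genes sharing sequence with members were named after their values were seen. So were *Zp1*, *Zp2*, *Zp3*, *Nlrp5*, *Bmp15*, *Gdf9*, *Oosp1* and *Mos* where their pools are compared with those of *Nlrp14*.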

Additional observations from a re-analysis of the deposited data

How the results depend on the processing

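No member was called under any alternative test, scaling, filter or omission of a pool, with adjusted p-values of 0.243 to 1. Signs of fitted log2 fold changes turned only on leaving out pools: *Nlrp4a* (-0.09 without control pool 1, -0.04 without quercetin pool 3), *Nlrp4c* (-0.03 without quercetin pool 3), *Nlrp4e* (0.03 without control pool 1, 0.09 without quercetin pool 2), *Nlrp9b* (0.06 without quercetin pool 1, 0.15 without quercetin pool 2) and *Nlrp14* (-0.08 without control pool 1, -0.33 without quercetin pool 3). The ranges on leaving out pools were -0.09 to 0.23 for *Nlrp4a*, -0.03 to 0.27 for *Nlrp4c*, -0.15 to 0.09 for *Nlrp4e*, -0.50 to 0.15 for *Nlrp9b* and -0.33 to 0.34 for *Nlrp14*. They were 0.21 to 0.30 for *Nlrp4b*, 0.10 to 0.26 for *Nlrp4f*, 0.14 to 0.40 for *Nlrp9a* and 0.11 to 0.41 for *Nlrp9c*. The last 4 had a higher mean with quercetin in every setting run. Leaving out pools gave 0 to 3 members at an unadjusted p under 0.05, and the 3 were without quercetin pool 3. The cause was not tested. Members with groups that did not overlap were 2, and 1 with unscaled library size, a scaling that moved the median log2 fold change of all tested genes from -0.03 to -0.11. Members with at least 10% of shared words went from 5 at 31 bases to 1 at 75 bases, since longer words match less often. Over all genes, DESeq2 called 12, the likelihood ratio test 16, the quasi-likelihood test without a filter 3 and with it 0. Same-numbered pools deviated with correlations of 0.296, 0.101 and -0.0303, so the numbers were not taken to pair the pools. With the replicate block 0 members were called, 7 were higher and 2 lower, and *Nlrp4b* had a log2 fold change of 0.26 and *Nlrp9b* of -0.16.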
